A study of Danio rerio with 4 samples.

Results

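The adult globin genes *hbba1*, *hbba2*, *hbaa1* and *hbaa2* and the erythroid heme gene *alas2* were followed through single-cell libraries of the zebrafish skull roof. They are 5 of the 39988 genes in the deposited matrices and were taken by symbol, in a choice made with earlier results of these data known. The study profiled dissected calvaria in 4 droplet libraries, 2 from juveniles of 9 to 11 mm, when the skull bones are still growing, and 2 from adults of 22 to 25 mm, when sutures are established. Its methods give 20 juvenile and 10 adult fish, which can be read as per library or per stage. All were labelled as the tubingen strain, and fish were pooled within a library. Live cells were sorted without DAPI. Juvenile replicate 1 and adult replicate 1 came from *cdh1*:mlanYFP fish (ecad:YFP in the labels) and cells with that fluorescence were removed. Juvenile replicate 2 came from *sp7*:GFP fish with GFP cells removed, and adult replicate 2 from Tubingen fish sorted for DAPI alone. The *cdh1*:mlanYFP gate is the only one present at both stages, so that the other gates and stage cannot be told apart.

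Hemoglobin is a tetramer of alpha and beta globin chains, each holding a heme group. *hbaa1* and *hbaa2* encode adult alpha chains, *hbba1* and *hbba2* adult beta chains, and *alas2* encodes the erythroid 5-aminolevulinate synthase, which carries out the rate-limiting first step of heme synthesis. Fish red blood cells keep their nucleus and circulate through every vascularised tissue, so a dissected skull roof carries them along. Their globin mRNA is so abundant that in droplet experiments it also reaches the droplets of other cells.

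The file identifiers were LL0000011954 for *hbba1*, LL0000011955 for *hbba2*, LL0000011948 for *hbaa1*, LL0000011949 for *hbaa2* and LL0000000858 for *alas2*. The reads were aligned to the GRCz11 genome. In the RefSeq gene table, which is for another assembly and was used only for names and gene order, the globin members stand in a cluster on chromosome 3 in the order *hbaa2*, *hbba2*, *ba1l*, *hbaa1*, *hbba1* and *si:ch211-5k11.8*. The embryonic and larval globins *hbbe1.1* to *hbae3* follow. *alas2* lies on chromosome 8. RefSeq gives *si:ch211-5k11.8* (LL0000026090) the synonym *hbaa1.2*, which makes it a further alpha globin gene, and it is reported beside the members. *ba1l* (synonym *hbba1.1*) is not among the 39988 features under that name. The sequences of these genes were not compared here. Where copies of the same chain are near-identical, read counting could move counts between them, and every ratio between the genes carries that uncertainty.

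The libraries held 8313, 7932, 2072 and 2994 kept cells (juvenile replicates 1 and 2, adult replicates 1 and 2), 21311 in all, with a median of 1878 to 2815 transcripts (unique molecular identifiers, UMIs) per cell and 6860615 to 23504027 UMIs per library. Each library is a pool of fish, so the unit of every test is a pool and not a fish. Cells were assigned to 16 kinds by detected marker genes, none of them a globin or *alas2*, and 50.3% to 70.3% of a library's cells met a gate. Pairs of libraries shared 14 to 104 cell barcodes, and no shared barcode was rich in globin in both. Such a barcode was hardly possible, since only 5 kept cells of juvenile replicate 2 and 1 of adult replicate 1 had over 20% adult globin UMIs. Doublets were not removed. Juvenile replicate 1 stood apart from the other libraries in its levels of *hbba1*, *hbaa1* and *alas2*, and estimates of the stage fits are also given without it. Nearly all *hbba2* and *hbaa2* UMIs of adult replicate 1 came from a single cell. Levels are UMIs per 1000000 UMIs (CPM), and intervals are exact 95% intervals that cover counting error only.

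*hbba1* was measured at 27843 CPM in juvenile replicate 1, 649 in juvenile replicate 2, 230 in adult replicate 1 and 0.776 in adult replicate 2. The level of *hbaa1* was 17408, 422, 280 and 0.388 CPM in the same order. In both genes the juvenile libraries were above the adult ones, but the juvenile libraries lay further apart than the lower juvenile library lay from the higher adult one. *hbba2* and *hbaa2* did not follow this order. *hbba2* was at 47.4 and 0.638 CPM in the juvenile libraries, at 200 CPM in adult replicate 1 and at 0 in adult replicate 2, where a count of 0 allows up to 0.388 CPM. *hbaa2* was at 23.7, 0.766, 235 and 0.259 CPM. Both were highest in adult replicate 1, where 1 cell held 97.7% of the *hbba2* and 98.8% of the *hbaa2* UMIs, and the stages overlapped. Outside that cell *hbba2* was at 4.68 and *hbaa2* at 2.92 CPM in that library. *alas2*, expressed at far lower counts than the globins, was at 76.2, 3.96, 1.46 and 0.646 CPM, again with the juvenile libraries on top.

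**Figure D1:**
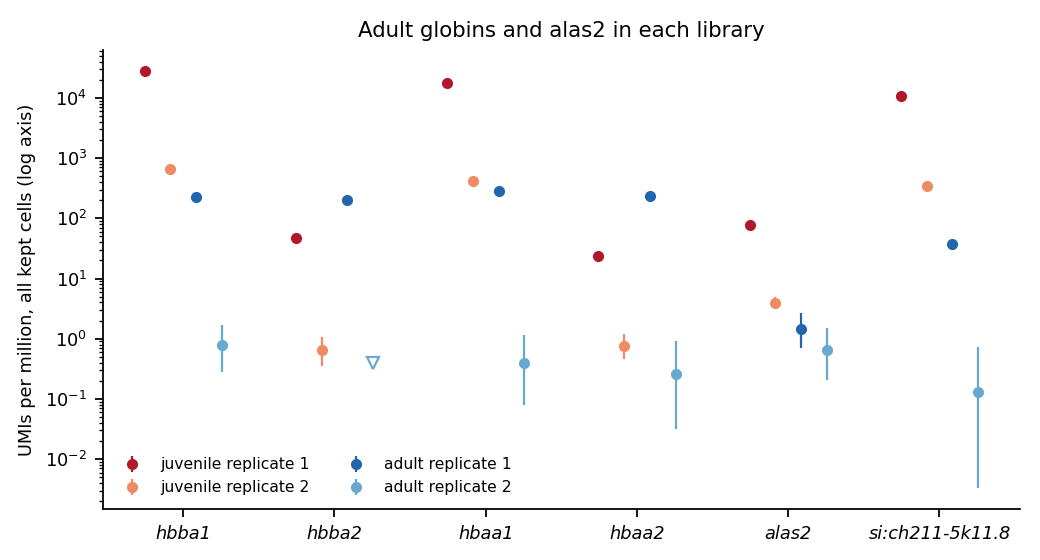
Level in CPM (log axis) of the 5 genes and of the further alpha globin gene *si:ch211-5k11.8* in each library, all kept cells together; points are library values, bars exact 95% Poisson intervals, and the open triangle marks the limit of 0.388 that a count of 0 allows for *hbba2* in adult replicate 2. *hbba1* ran from 27843 in juvenile replicate 1 to 0.776 in adult replicate 2, while *hbba2* and *hbaa2* were highest in adult replicate 1, at 200 and 235.

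Summed, the adult globins took 4.53% of all UMIs in juvenile replicate 1, 0.107% in juvenile replicate 2, 0.0944% in adult replicate 1 and 1.42 CPM, 11 UMIs in all, in adult replicate 2. *hbba1* was detected in 99.9% of the cells of juvenile replicate 1, and in 6.40%, 3.62% and 0.134% of the cells of the others. An exact two-sided permutation test over the 4 libraries cannot give a p below 0.333, so it could not separate the stages: p was 0.333 for *hbba1*, *hbaa1* and *alas2* and 1 for *hbba2* and *hbaa2*. Within the shared gate the levels in juvenile and adult replicate 1 were 27843 and 230 CPM for *hbba1* and 47.4 and 200 CPM for *hbba2*, with 1 library per stage and thus no test. In such sums, fewer red blood cells and less RNA per cell cannot be told apart.

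A fit across all genes likewise called no difference between stages. With edgeR's quasi-likelihood test and Benjamini-Hochberg adjustment over 19941 genes, no gene passed an adjusted p of 0.05 (0%), against 5017 genes under an unadjusted p of 0.05 and 2804 genes called by DESeq2. The log2 change from juvenile to adult was −6.88 (SE 2.88, adjusted p = 0.213) for *hbba1* and −5.93 (SE 2.88, adjusted p = 0.274) for *hbaa1*. *hbba2* and *hbaa2* had positive estimates of 2.12 and 3.33 (adjusted p = 0.663 and 0.457), which turned to −11.82 and −4.80 without adult replicate 1. *alas2* had an estimate of −4.90 (SE 1.53, adjusted p = 0.125), which DESeq2 alone called (adjusted p = 0.00156). Without juvenile replicate 1 the estimates were −2.10 for *hbba1*, −1.20 for *hbaa1*, 7.66 for *hbba2*, 7.64 for *hbaa2* and −1.26 for *alas2*. The median over all genes was −0.03, and −0.57 with library totals, which changed the direction of no member. No gene of the 5 accompanying lists passed. Of further globins 3 of 8 were abundant enough to be tested, of heme synthesis genes 16 of 17, of iron and heme breakdown genes 13 of 14, of erythroid regulators 10 of 11 and of red cell membrane and cytoplasm genes 17 of 17. The list medians were −6.65, −0.06, −0.30, −0.87 and −2.40.

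Red blood cells held most adult globin UMIs of the 3 libraries in which any were gated. The gate, at least 2 detected markers among 10 red cell genes such as the carbonic anhydrase *cahz* and the anion exchanger *slc4a1a*, took 447 and 19 cells of juvenile replicates 1 and 2, 1 cell of adult replicate 1 and none of adult replicate 2. Those cells held 81.1%, 95.9% and 97.4% of their library's adult globin UMIs. Of *hbba2*, *hbaa2* and *alas2* alone, those of juvenile replicate 2 held 33.3%, 50% and 49.5%. In juvenile replicate 1 they were 5.38% of the cells. The gated cells of the juvenile libraries differed in depth. Their median was 2942 UMIs and 360 genes in juvenile replicate 1, against 15956 UMIs and 1835 genes in juvenile replicate 2. The single gated cell of adult replicate 1 had 21308 UMIs and 2215 genes.

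The marker gate and the globins did not pick the same cells throughout. In juvenile replicate 1, 377 of the 447 gated cells had more than 20% of their UMIs on the adult globins, with a median of 61.5% and a range of 27.2% to 78.1%. A further 31 were led by embryonic and larval globins and had a median adult share of 1.06%. The other 39 were low in both. Of these, 14 had an adult share of 6.25% to 19.6% with a median of 13218 UMIs and 1290 genes, and 25 had less than 5% with a median of 2 red cell markers, the minimum of the gate. Conversely, 49 ungated cells and 3 cells gated as another kind in that library had more than 20% of their UMIs on the adult globins.

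In juvenile replicate 2, 5 of the 19 gated cells exceeded 20%, at 67.4%, 59.1%, 54.1%, 26.5% and 21.5%. Another 6 lay between 5.93% and 9.56%, at 15206 to 17833 UMIs, and 8 were at or below 0.230%, 4 of them with no adult globin UMI. The 3 cells with the highest shares had 342, 637 and 223 genes, and the next pair 1332 and 2375. The adult cell had a share of 29.6%, near the 27.2% at the lower end of the globin-rich cells of juvenile replicate 1.

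**Figure D2:**
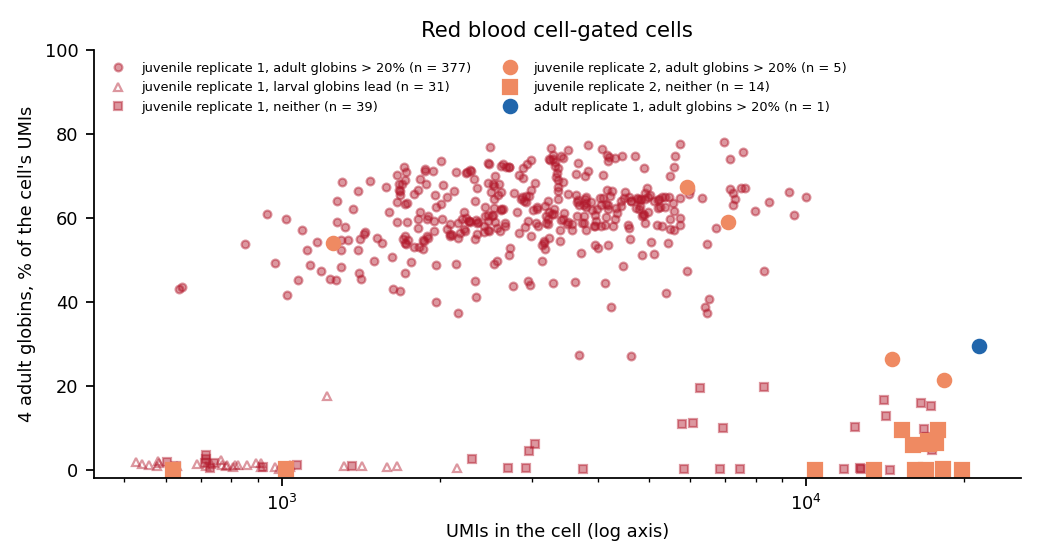
Share of the 4 adult globins in the UMIs of each red blood cell-gated cell (vertical, %) against the cell's UMIs (horizontal, log axis), coloured by library; circles are cells with over 20%, triangles cells led by larval globins and squares cells with neither. The 377 cells of juvenile replicate 1 with over 20% lie around their median of 61.5%, and the deep cells of juvenile replicate 2 and of adult replicate 1 lie lower.

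All 5 genes were higher in red blood cell-gated cells than in the remaining cells of the same library. This could be tested in the juvenile libraries, since only they had at least 10 gated cells. The gate consists of red cell genes, chosen with earlier results of these data known. A higher level of globins and *alas2* in its cells was therefore foreseeable, and the p-values of the fit below are no independent evidence for it. *hbba1* stood at 305519 CPM in gated and 5896 CPM in other cells of juvenile replicate 1, and at 59620 and 29.1 CPM in juvenile replicate 2. *hbaa1* stood at 195340 and 3345 CPM, and at 39125 and 15.0 CPM. The gated level was thus 51.8 and 58.4 times the level in other cells for these genes in juvenile replicate 1, and 2048 and 2608 times in juvenile replicate 2. The other cells of juvenile replicate 1 held 117945 *hbba1* and 66909 *hbaa1* UMIs. Without those over 20% adult globin they held 62304 and 31601. The minor pair was lower throughout. *hbba2* stood at 591 and 4.45 CPM in juvenile replicate 1 and at 20.4 and 0.430 CPM in juvenile replicate 2, and *hbaa2* at 298 and 2.00 CPM and at 36.8 and 0.387 CPM. *alas2* stood at 823 and 17.1 CPM, and at 188 and 2.02 CPM.

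In the edgeR quasi-likelihood fit with library as a block, the log2 difference was 9.41 (SE 0.46, adjusted p = 8.86e-88) for *hbba1* and 9.67 (SE 0.49, adjusted p = 1.54e-80) for *hbaa1*. It was 7.63 (SE 1.01, adjusted p = 4.46e-11) for *hbba2*, 8.09 (SE 1.06, adjusted p = 2.37e-11) for *hbaa2* and 7.13 (SE 0.86, adjusted p = 2.42e-13) for *alas2*. In juvenile replicate 2 the gated cells held only 5 *hbba2* and 9 *hbaa2* UMIs, 4 and 6 of them in a single cell. Its other cells held 10 and 9. The 5 of 5 called compare with 1.97% of the 17695 genes tested, and with 0.938% called higher and 1.03% called lower. The fit has 1 residual degree of freedom per gene, so its errors lean on all other genes. In juvenile replicates 1 and 2 the log2 ratio of gated to other CPM was 5.70 and 11.0 for *hbba1*. For *hbaa1* it was 5.87 and 11.3. The SE and p-values of the fit do not measure that spread between libraries. Without the block the adjusted p lay between 0.000443 and 0.00341. Scaling by library totals, in which the globins themselves take up much of the red cell total, left the *hbba1* and *hbaa1* differences at 8.34 and 8.59 but ended both calls (adjusted p = 0.242 and 0.187). It moved the median of all genes from −0.82 to −2.15 and the calls from 166 higher and 183 lower to 128 and 2167.

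Many genes of the accompanying lists were also higher in the gated cells, though not all. Among further globins 7 of 7 tested genes were higher in the gated cells, among heme synthesis genes 11 of 17, among iron and heme breakdown genes 5 of 13, among erythroid regulators 6 of 10, and among red cell membrane and cytoplasm genes outside the gate 6 of 7. None was called lower. The list medians were 5.67, 3.89, −0.07, 3.97 and 3.88 on the log2 scale, beside −0.82 for all genes. With library totals the higher counts were 4, 8, 3, 6 and 4, and 2 of 13 iron and heme genes were called lower, beside 2167 of all 17695 genes. The lists are textbook erythroid genes and were chosen with results of these data known.

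The largest differences among listed genes came from all of the lists, led by *gata1a*. *gata1a*, the erythroid master transcription factor, was at 49.3 CPM in gated and 0.500 CPM in other cells of juvenile replicate 1, and at 61.3 and 0.258 CPM in juvenile replicate 2 (log2 difference 8.29, adjusted p = 1.23e-10). *epor*, the erythropoietin receptor, had a log2 difference of 7.30 and *gfi1b*, a repressor required in red cell maturation, 6.46. *tfr1a*, the transferrin receptor through which developing red cells take up iron, differed by 7.27, with 123 and 3.20 CPM in juvenile replicate 1 and 102 and 0.688 CPM in juvenile replicate 2. Of the heme pathway, *hmbsb*, a hydroxymethylbilane synthase gene, differed by 6.06. *blvrb*, a biliverdin reductase gene, differed by 5.81 and *tmod4*, a tropomodulin that caps actin filaments, by 6.81. Of the further globins, *zgc:163057* differed by 7.65, *hbae1.3* by 7.62 and *hbbe1.1* by 5.88, with adjusted p at or below 5.07e-07 for all the listed genes named here.

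The paralog *alas1*, which starts heme synthesis in non-erythroid cells and was singled out after its values were seen, went the other way without passing: it was at 5.69 CPM in gated and 62.7 CPM in other cells of juvenile replicate 1, and at 49.1 and 97.5 CPM in juvenile replicate 2 (log2 difference −1.15, adjusted p = 0.691). In red blood cell-gated cells *alas2* thus exceeded *alas1*, and in the other cells *alas1* exceeded *alas2*, in both juvenile libraries, on a scale per UMI of 3′ counts.

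The calls of *hbae3*, *hbae5* and *hbbe2* rested on juvenile replicate 1. *hbae5* was at 3766 CPM in its gated cells, and at 0 of 244547 UMIs in those of juvenile replicate 2, a count that allows up to 12.3 CPM. *hbbe2* was at 3480 CPM and 0 in the same cells. RefSeq places this pair as neighbours on chromosome 12, away from the adult cluster. The remaining further globins also had few UMIs in the gated cells of juvenile replicate 2. There *hbbe1.1* had 2, *hbae1.1* 3, *zgc:163057* 9 and *hbae1.3* 17, of which 15 lay in a single cell. In juvenile replicate 1 the 31 gated cells led by larval globins held 972 *hbbe1.1* and 894 *hbae1.3* UMIs. All other gated cells of that library held 43 and 226.

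The cells led by larval globins were a distinct set within juvenile replicate 1. In these 31 cells, of 526 to 2154 UMIs, larval and embryonic globins took 50.7% of the UMIs and the adult globins 1.74%. *hbba1* was at 9967 CPM and *hbaa1* at 7414 CPM in them, against 375439 and 239578 CPM in the 377 cells rich in adult globin. A UMI of *alas2* was found in 41.9% of the larval-led cells and in 84.6% of the adult-rich ones, at 699 and 1004 CPM. Their medians of UMIs per cell were 811 and 3047. The median adult globin share of the larval-led cells, 1.06%, lay in the range of other kinds at like depth in that library. Cells of those kinds had medians of 1.43% at 500 to 842 UMIs and 0.846% at 843 to 1648. Only 1 of the 447 cells had between 10% and 90% of its globin UMIs on the larval genes, and no gated cell of the other libraries was larval-led.

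The share of the minor adult genes separated adult replicate 1 from both juvenile libraries. In red blood cell-gated cells *hbba2* made up 0.193% (0.181% to 0.206%) and 0.0343% (0.0111% to 0.0800%) of the beta globin UMIs of juvenile replicates 1 and 2, against 47.2% (45.3% to 49.0%) in adult replicate 1. *hbaa2* made up 0.153%, 0.0940% and 45.8% of *hbaa1* and *hbaa2* UMIs. In the adult cell the 4 genes were nearly balanced, with 1499 UMIs of *hbba1*, 1338 of *hbba2*, 1879 of *hbaa1* and 1590 of *hbaa2*. In the juvenile libraries *hbba1* and *hbaa1* carried nearly all of it. The adult value is that of 1 cell, so that it describes that cell and not the stage.

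The remaining cells of adult replicate 1 also carried the minor genes. *hbba2* made up 29.4% (21.0% to 38.9%) of their beta globin UMIs, with 32 UMIs spread over 32 cells, and *hbaa2* 33.3% (21.7% to 46.7%), with 20 UMIs over 20 cells. The cells with *hbba2* belonged to 8 kinds, besides 14 ungated cells. In the remaining cells of the juvenile libraries *hbba2* made up 0.0754% and 1.46%. The value of juvenile replicate 2 was 10 of 687 beta globin UMIs, and 8 of the 10 lay in a single ungated cell. Adult replicate 2 had 6 beta globin UMIs, all of *hbba1*, and 5 alpha globin UMIs, 2 of *hbaa2*, so that its intervals ran from 0% to 45.9% for *hbba2* and from 5.27% to 85.3% for *hbaa2*.

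Over all kept cells of a library *hbba2* made up 0.170%, 0.0982%, 46.5% and 0% of beta globin UMIs, and *hbaa2* 0.136%, 0.181%, 45.6% and 40.0% of *hbaa1* and *hbaa2* UMIs, the last value of each from the few UMIs of adult replicate 2. The exact two-sided permutation test over the libraries gave p = 1 for *hbba2* and p = 0.333, the smallest possible, for *hbaa2*. Without adult replicate 1 the *hbba2* difference turned from 23.1 to −0.134 percentage points.

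**Figure D3:**
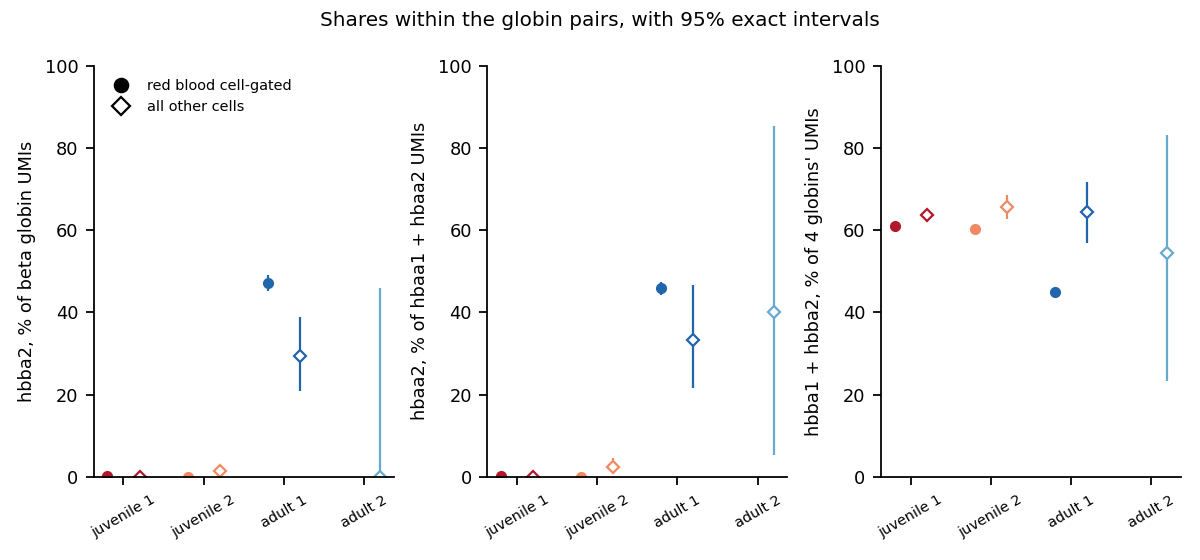
Shares within the globin genes for each library, with *hbba2* in beta globin UMIs (left), *hbaa2* in *hbaa1* and *hbaa2* UMIs (middle) and the beta genes in all 4 adult globins (right), all in %; filled circles are red blood cell-gated cells, open diamonds all other cells, bars exact 95% intervals. *hbba2* lies at 47.2% in the gated cell of adult replicate 1 and below 0.2% in the gated cells of both juvenile libraries. The other cells lie at 29.4% in adult replicate 1 and at 1.46% in juvenile replicate 2. That 1.46% rests on 10 *hbba2* UMIs, 8 of them in a single cell.

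Among single juvenile red blood cells the minor genes were unevenly spread. Of 394 gated cells of juvenile replicate 1 with at least 100 adult globin UMIs, 313 had no *hbba2* UMI, and the 10 highest cells held 60.1% of all *hbba2* UMIs. The 5 highest had *hbba2* shares of 6.83%, 3.46%, 3.20%, 2.58% and 2.38% of their beta globin. The same 5 cells had *hbaa2* shares of 1.23%, 1.57%, 0.799%, 1.13% and 2.07%. A share above 1% was found in 16 cells for *hbba2* and in 14 for *hbaa2*, with 6 cells above it for both. Across the 394 cells the levels of *hbba2* and *hbaa2*, neighbours in the RefSeq order, had a Spearman correlation of 0.46, against 0.15 for *hbba1* with *hbba2* and 0.07 for *hbaa1* with *hbaa2*. These cells share a library and its depth, and most have zero counts of both minor genes.

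The balance of beta and alpha UMIs depended on whether the further alpha gene was counted. The beta genes made up 61.0%, 60.4% and 45.0% of the 4 adult globins in the gated cells of juvenile replicate 1, juvenile replicate 2 and adult replicate 1, that is 1.56, 1.52 and 0.818 beta UMIs per alpha UMI. With *si:ch211-5k11.8* added to the alpha genes the ratios were 0.976, 0.845 and 0.767, nearest to 1 in juvenile replicate 1. Cell by cell in juvenile replicate 1 this ratio had a median of 0.976, with 25% of the cells below 0.913 and 25% above 1.07.

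*si:ch211-5k11.8* itself varied between cells in steps. It made up 37.6%, 44.5% and 6.17% of alpha globin UMIs in the gated cells of the 3 libraries. Of the 394 cells of juvenile replicate 1, 131 had a share of 4.13% to 25.5% with a median of 19.4%, 237 a share of 34.6% to 51.6% with a median of 42.7%, and 25 a share of 55.3% to 75.2% with a median of 64.0%. A single cell, at 27.9%, lay between the lower groups. The bounds were set after the values were seen, so the groups are a description. The 11 such cells of juvenile replicate 2 ranged from 15.0% to 55.0% with a median of 46.1%.

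The 3 groups of cells differed little in total globin. Summed with *si:ch211-5k11.8*, the adult globins took a median of 75.9%, 76.8% and 78.4% of the UMIs, from the low to the high group. Beta UMIs per alpha UMI, with all alpha genes counted, were 1.07, 0.947 and 0.884. The median number of genes per cell was 332, 376 and 375. *hbba2* was detected in 11.5%, 25.3% and 24.0% of their cells. Across the 394 cells the levels of *hbaa1* and *si:ch211-5k11.8* had a Spearman correlation of −0.29, beside 0.61 for *hbba1* with *hbaa1*. These groups come from 1 library of pooled fish, and whether they are fish, cell states or read assignment between the alpha globin copies was not tested.

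**Figure D4:**
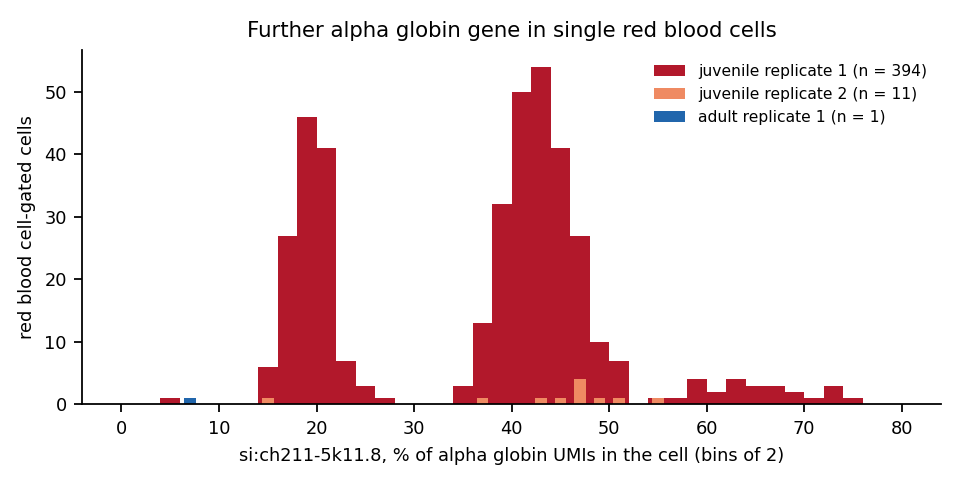
Number of red blood cell-gated cells (vertical) by the share of *si:ch211-5k11.8* in the cell's alpha globin UMIs (horizontal, %, bins of 2), for cells with at least 100 adult globin UMIs, coloured by library. Juvenile replicate 1 forms separate peaks near its group medians of 19.4% and 42.7% and a spread of cells above 55%, and the adult cell lies at 6.17%.

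*alas2* was at a higher level in the gated cells than in cells of other kinds, though few of its UMIs were counted. It was detected in 77.2% of the gated cells of juvenile replicate 1, in 52.6% of those of juvenile replicate 2 and in the adult cell, at 823 (779 to 869), 188 (138 to 251) and 422 (193 to 802) CPM. The levels of juvenile replicate 1 and juvenile replicate 2 did not overlap within counting error, and the adult cell overlapped both. The gated sets differed in make-up, however. In gated cells with over 20% adult globin, *alas2* was at 1004 CPM in 377 cells of juvenile replicate 1. In 5 such cells of juvenile replicate 2 it was at 679 CPM, from 32 UMIs. The other 14 gated cells of juvenile replicate 2 were at 70.9 CPM. Per 1000 adult globin UMIs the gated cells held 1.64, 1.90 and 1.43 *alas2* UMIs. Cells of other kinds had *alas2* at 6.68, 1.67, 0 and 0.473 CPM in the 4 libraries, and a UMI was seen in 1.69%, 0.486%, 0% and 0.113% of them. In juvenile replicate 2 this meant 10 gated cells with a UMI against 27 cells of other kinds and 15 ungated cells. The 0 of adult replicate 1, among 1042 cells, allows up to 1.01 CPM.

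The 49 ungated cells of juvenile replicate 1 rich in globin had *alas2* at 862 CPM (735 to 1005), and a UMI in 83.7% of them. All 447 gated cells together were at 823 CPM, within that interval. The 377 gated cells that were likewise over 20% adult globin were at 1004 CPM, near its upper end. Other ungated cells of that library were at 13.1 CPM. Across 4 equal bins of rising adult globin share in the 394 cells, *alas2* was at 455, 1008, 1160 and 1010 CPM, lowest where globin was lowest. Relative to UMIs other than the adult globins and *si:ch211-5k11.8*, it was at 774, 4247, 5713 and 5157 CPM in the same bins. The bins were set by globin share, so the share of these other UMIs falls across them largely by construction. The lowest bin, from 4.42% to 55.2%, also includes the 14 gated cells at 6.25% to 19.6%, with a median of 13218 UMIs. No trend of *alas2* with globin can be read from these values.

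Cells of other kinds, which should not express globins, carried adult globin UMIs at a level that differed widely between libraries. Over all gated kinds except red blood cells the adult globins took 0.465% of UMIs in juvenile replicate 1, 37.1 CPM in juvenile replicate 2, 27.6 CPM in adult replicate 1 and 0.946 CPM in adult replicate 2. At least 1 such UMI was found in 99.98% of these cells in juvenile replicate 1, and in 8.93%, 7.20% and 0.169% in the others, at median depths of 1648, 2039, 2240 and 1885 UMIs. The highest single cell had 1742, 67, 2 and 2 of them. With every cell thinned to 1000 UMIs, which left out 1580, 1571, 144 and 400 shallower cells, the shares of cells were 94.5%, 3.66%, 3.12% and 0.0728%.

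In juvenile replicate 1 the kinds had similar numbers of globin UMIs per cell, while single cells varied. The median over the 15 kinds ran from 9 to 13 per cell and the mean from 9.44 in endothelial cells to 14.1 in chondrocytes, of which 1 cell held 728. As a share of UMIs it ran from 0.204% in chondrocytes, at a median of 5980 UMIs per cell, to 0.990% in myelinating glia, at 947. Mesenchyme was at 0.420%, lymphocytes at 0.423%, macrophages at 0.292%, osteoblasts at 0.245% and neuronal cells at 0.840%. Split by depth, the cells of these kinds had medians of 9, 10, 11 and 12 globin UMIs from the shallowest to the deepest of 4 equal bins, while the median share fell from 1.43% to 0.221%. Over the 15 kinds, which share 1 library, the number per cell and the median depth had a Spearman correlation of 0.43. The share, which has depth in its denominator, had −0.97.

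In juvenile replicate 2 the same kinds lay at the ends of the range at a lower level. The share ran from 17.5 CPM in chondrocytes to 91.5 CPM in myelinating glia over 13 kinds, and the number per cell from 0.0811 to 0.158. Over these kinds the Spearman correlation with depth was −0.16 for the number per cell and −0.82 for the share. In the adult libraries it was −0.33 and −0.59 over 13 kinds of replicate 1, and 0.43 for both over 9 kinds of replicate 2, most of them at 0. In adult replicate 1 the range was 0 to 74.6 CPM, with neutrophils highest at 20 UMIs in 185 cells (45.5 to 115 CPM) and hair cells, lymphocytes and vascular smooth muscle at 0. The interval of neutrophils did not reach the 22.1 CPM of mesenchyme (14.6 to 32.2), and their median depths were 1079 and 2682 UMIs. In adult replicate 2, 7 of 9 kinds were at 0 and only mesenchyme, with 3 UMIs in 1364 cells, and epithelial cells, with 1 UMI in 64, had any.

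**Figure D5:**
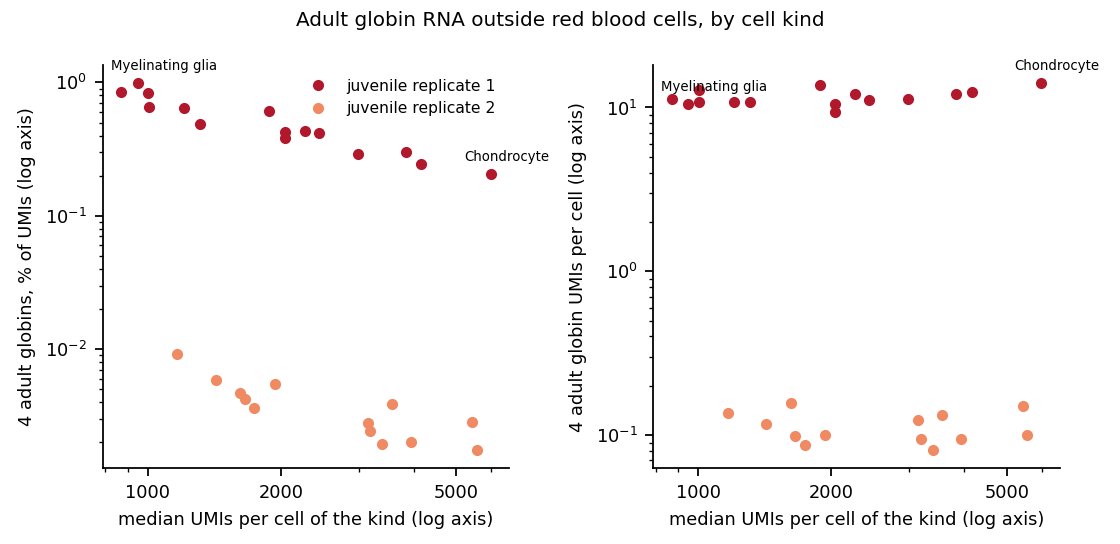
Adult globin UMIs outside red blood cells in the juvenile libraries, as % of UMIs (left, log axis) and as UMIs per cell (right, log axis), against the median UMIs per cell of each kind (log axis); each point is a cell kind with at least 10 cells. In juvenile replicate 1 the share falls from 0.990% in myelinating glia to 0.204% in chondrocytes while the number per cell stays between 9.44 and 14.1.

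The globin level of these cells was higher in both juvenile libraries than in the adult ones, in a design too small for the exact test to separate stages. The mean share was 0.235% ± 0.327 (SD, n = 2) in juvenile and 0.00143% ± 0.00188 (SD, n = 2) in adult libraries, with a two-sided exact permutation p of 0.333, the smallest possible. Without juvenile replicate 1 the difference shrank from −0.233 to −0.00228 percentage points. Over all cells not gated as red blood cells, *hbba1* was at 5896, 29.1, 11.3 and 0.776 CPM. In the same cells *hbaa1* was at 3345, 15.0, 5.85 and 0.388 CPM. In juvenile replicate 1 they include the cells over 20% adult globin outside the gate. Leaving those out took *hbba1* from 117945 to 62304 UMIs in that library. With edgeR the log2 change from juvenile to adult was −8.75 (SE 2.79, adjusted p = 0.129) for *hbba1* and −8.86 (SE 2.80, adjusted p = 0.127) for *hbaa1*. No gene of 19899 was called (0%), against 5020 at an unadjusted p under 0.05 and 2840 by DESeq2. DESeq2 called *hbba1*, *hbaa1* and *alas2* (adjusted p = 0.00654, 0.00652 and 0.0338). The estimates were 0.15 for *hbba2*, 0.71 for *hbaa2* and −3.97 for *alas2* (adjusted p = 0.967, 0.758 and 0.162). Without juvenile replicate 1 the edgeR estimates were −1.80 for *hbba1*, −1.78 for *hbaa1* and −1.44 for *alas2*, and those of *hbba2* and *hbaa2* were 2.84 and 2.50. Without adult replicate 1 the latter pair turned to −8.40 and −1.33.

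In mesenchyme, with 574, 509, 414 and 1364 cells in the libraries, the major globins were lower in adults. *hbba1* was at 2765 and 25.4 CPM in the juvenile libraries and at 10.7 and 0.668 CPM in the adult ones, and *hbaa1* at 1431, 10.7, 5.74 and 0.334 CPM. The groups did not overlap, but outside juvenile replicate 1 these levels rested on few counts. In the same order of libraries they came from 4184, 31, 13 and 2 *hbba1* UMIs and 2165, 13, 7 and 1 *hbaa1* UMIs. The log2 change was −8.06 for both, with SE 1.80 and adjusted p = 0.0416 for *hbba1* and SE 1.83 and adjusted p = 0.0440 for *hbaa1*. *hbba2*, *hbaa2* and *alas2* were too low to be tested, so 2 of 2 tested members were called, beside 2.47% of the 7657 genes tested, 1.38% called lower and 1.08% called higher (106 lower and 83 higher, or 80 lower and 30 higher with library totals). The calls depended on juvenile replicate 1, without which the estimates were −2.02 and −1.68 (adjusted p = 0.478 and 0.830). They were also lost with library totals, with a gate of 3 markers and without the cells most like doublets (adjusted p = 0.0513 to 0.0877 for both genes), and DESeq2 did not call *hbaa1* (adjusted p = 0.0606).

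The globin UMIs outside red blood cells were not in the proportions of the gated cells. In juvenile replicate 1 the beta genes made up 64.7% to 71.0% of the adult globins in the 15 kinds, all above the 61.0% of gated cells. The share of *si:ch211-5k11.8* in alpha globin was 44.2% to 52.6%, all above 37.6%. For both measures the exact interval of 2 of the 15 kinds held the gated value. The *hbba2* share was too low to tell kind by kind, and the interval of 14 of the 15 kinds held the gated value. Over all these kinds together it was 0.110% (0.0789% to 0.148%), below the 0.193% (0.181% to 0.206%) of gated cells. Counting all cells not gated as red blood cells, log2 of beta over alpha was 0.82, 0.94 and 0.86 in the 3 libraries with gated cells. Within the gated cells it was 0.65, 0.61 and −0.29. With *si:ch211-5k11.8* added to the alpha genes, beta UMIs per alpha UMI were 1.02, 0.926 and 1.27 outside the gated cells. Within them they were 0.976, 0.845 and 0.767, so the gap in the juvenile libraries was narrower on this count.

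Without *si:ch211-5k11.8*, log2 of beta over alpha was lower in the gated cells in 3 of 3 libraries, with a mean difference of −0.55. Without adult replicate 1, whose value is that of 1 cell, it was −0.25, and with red blood cells taken as cells over 50% globin it was 0.08, with 1 library of 2 each way. The share of *si:ch211-5k11.8* in alpha globin was 42.1%, 51.8% and 30.2% outside the gated cells, again higher in 3 of 3, with a mean difference of −11.9 percentage points for gated minus other cells, −5.85 without adult replicate 1 and −2.56 with the 50% definition, 1 library of 2 each way. The exact two-sided sign-flip permutation over libraries gave p = 0.25 for each, the smallest that 3 pairs allow, and 0.556 after Benjamini-Hochberg adjustment over 10 such tests. *alas2* per 1000 adult globin UMIs was 1.85, 45.0 and 5.92 outside the gated cells, against 1.64, 1.90 and 1.43 within, the 5.92 being 1 *alas2* UMI over 169 globin UMIs. It was 455 in adult replicate 2, where 5 *alas2* UMIs met 11 globin UMIs.

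Across 52 sums of a library and a cell kind with at least 10 cells, the gene most like the summed adult globins was *si:ch211-5k11.8*, with a Pearson correlation of 0.934 of log2(CPM + 1) among 13227 genes. *si:ch211-103n10.5* followed at 0.894, then *hbae5* (0.830), *pvalb2* (0.785), *si:ch211-250g4.3* (0.784), *hbbe2* (0.760), *cahz* (0.729), *nt5c2l1* (0.726), *actc1b* (0.719) and *hbae1.3* (0.717). *cahz* and *nt5c2l1* are genes of the red cell gate, while *pvalb2* and *actc1b*, a parvalbumin and a cardiac-type actin gene, are known from muscle. The points share libraries, and within the 16 sums of juvenile replicate 1 the correlation fell to 0.295 for *pvalb2* and 0.207 for *actc1b*, against 0.998 for *si:ch211-5k11.8* and 0.684 to 0.946 for the others. Of the members, *hbba1* and *hbaa1* stood at 0.986 and 0.967, *alas2* at 0.704, *hbba2* at 0.492 and *hbaa2* at 0.457 over the 52 sums. All of these but *alas2* are themselves part of the summed globins. *hbba1* and *hbaa1* made up nearly all of that sum in the juvenile libraries, so the values of this pair were largely built in.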

How the data were processed

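The authors aligned 10x Genomics 3′ libraries (v2 chemistry) to GRCz11 with Cell Ranger, given as 3.0.0 in the methods and 3.1.0 in the file headers, and deposited counts of UMIs per gene and barcode. The sources used here do not name the gene annotation. The counts are raw, without correction for free RNA. As in the study, a barcode was kept if it had over 200 genes, below 2500 genes and less than 25% of UMIs on 6 mitochondrial genes. The study's cell annotation was not used here. A cell belonged to the kind with the most detected markers, if these were at least 2 and at least 2 times those of any other kind, a rule set after the files were seen. The members, the gene lists and the markers were chosen with earlier results of these data known.

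For tests, UMIs of a library were added up over each group of cells, with at least 10 cells per sum, and tested with edgeR 4.0.16 in R 4.3.3 (TMM, filterByExpr, quasi-likelihood, Benjamini-Hochberg over all genes, threshold 0.05), with DESeq2 1.42.0 as an alternative. Both sums of a library entered the comparison of red blood cells with other cells as a block. Shares have Clopper-Pearson and levels Poisson 95% intervals, and a count of 0 allows 3 counts. Alternatives were other scalings, filters, gates (3 markers, over 50% globin), all barcodes, without the 5% highest Scrublet scores, without cells over 20% globin, and without each library. All members were named in every result, the 10 largest differences among listed genes that passed, and the 10 genes most alike. On simulated counts the stage fit recovered 58.3% of 103 genes changed by a log2 fold of 2 and 96.9% of 97 changed by 3, with 6 false calls among 19252 genes, and the red blood cell fit 29.7% of 101 and 71.7% of 99, with 1 among 16437. The simulated counts had the same dispersion in every gene, and only well-counted genes were changed. The recovery rates thus do not carry over to genes as variable between libraries as the globins. Python 3.11.15, scanpy 1.11.5 and scipy 1.17.1 were used.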

Additional observations from a re-analysis of the deposited data

How the results depend on the processing

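Of 276 values recomputed under alternatives for 32 results, 223 were labelled the same, by a rule that differed between kinds of result. For log2 changes it meant the same direction and side of the threshold. For globin ratios it meant direction alone, since their exact p could not pass the threshold. For numbers of genes called it meant a similar number. For the globin share outside red blood cells it meant a shift smaller than the juvenile SD. That SD, 0.327 percentage points, was larger than the difference itself, −0.233, so this label could not register a shrinking difference. The −0.00228 without juvenile replicate 1 was thus also labelled the same. The number of genes called between stages in whole libraries was 0, and became 20 with library totals, 2804 with DESeq2 and 3326 without the filter on low counts, and 0 to 2134 without 1 library. Over cells not gated as red blood cells it was 0, and became 7, 2840 and 3278 under the same settings and 0 to 1824 without 1 library. In mesenchyme it was 189, and became 110 with library totals, 561 without the filter, 102 with a gate of 3 markers and 98 to 654 without 1 library. Between red blood cells and other cells it was 349, and became 2295 with library totals, 704 with DESeq2 and 754 with a gate of 3 markers. The fit with no replicate block called 332 genes, and all 5 members passed either way. A fit without 1 library was not run there, since 1 library leaves no residual degrees of freedom. No paired analysis was possible because the labels give no replicate numbers that link the stages.

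Reversed signs touched the minor genes most. Without adult replicate 1 the log2 change of *hbba2* became −11.82 and that of *hbaa2* −4.80 in whole libraries, and −8.40 and −1.33 outside red blood cells. Without 1 library these ranged up to 7.66 and 7.64 in whole libraries and up to 2.84 and 2.50 outside red blood cells, where *hbba2* was −0.0689 with library totals. Without juvenile replicate 2 these were −0.78 and −0.12 outside red blood cells. The stage difference of the *hbba2* share ranged from −0.134 to 46.4 percentage points without 1 library. The differences between red blood cells and other cells ranged from −0.652 to 8.96 points for *hbba2* and −1.16 to 6.30 points for *hbaa2*. With red blood cells taken as cells with over 50% globin, which drops adult replicate 1, they were −0.0390 and −0.101, and log2 of beta over alpha differed by 0.0772. The stage difference of *alas2* per 1000 globin UMIs was 225, and ranged from −1.14 to 452 without 1 library. The cause was not tested for any of these. Counts of 11 adult globin UMIs in adult replicate 2 and 1 gated cell in adult replicate 1 limit every adult value.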

Other observations

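Embryonic and larval globins were not confined to juvenile replicate 1. *hbae3* was seen in all 4 libraries, with 63, 12, 8 and 7 UMIs, at most 1 UMI per cell outside juvenile replicate 1. *hbae1.1* had 2555 UMIs in juvenile replicate 1, 28 in juvenile replicate 2, none in adult replicate 1 and 6 in adult replicate 2, where it was as abundant as *hbba1* with its 6 UMIs. *hbae5* and *hbbe2* had 10206 and 9759 UMIs in juvenile replicate 1, 1 each in juvenile replicate 2 and none in the adult libraries, which allows up to 0.437 and 0.388 CPM there.

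Of the barcodes that were rich in globin in juvenile replicate 1, 8, 2 and 3 also occurred among the cells not gated as red blood cells of juvenile replicate 2, adult replicate 1 and adult replicate 2, and none of them held a globin UMI there. Among all such cells of these libraries only 714 of 7913, 156 of 2071 and 7 of 2994 held any. So few barcodes therefore cannot show whether globin RNA was shared between libraries.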
